A study of Homo sapiens with 6 samples.

Results

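GADD45A, GADD45B, GADD45G, BTG1, BTG2, BTG3, TOB1 and TOB2 are the growth-arrest genes described here, in HCT116 human colorectal carcinoma cells treated with irinotecan. They were taken by gene name from the table of the comparison between irinotecan and control, and 8 of its 30560 genes are these members, 3 of the GADD45 family and 5 of the BTG/TOB family. The cells were wild type per the labels. The treated group received irinotecan (CPT-11), a camptothecin prodrug whose metabolite traps topoisomerase I on DNA, at 10 µM for 48 hours, and the control group received DMSO, for a time that the labels do not give separately. The labels give 3 RNA sequencing libraries per group, whereas the design text speaks of duplicates; all 6 were used. No label says that libraries of a group were grown as separate cultures, so p-values cover the spread between these libraries only, which may be technical.

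GADD45 proteins are small acidic proteins without enzyme activity of their own. They bind the kinase MAP3K4 and open the way to p38 and JNK signalling, bind the replication clamp PCNA, and interfere with the CDK1-cyclin B1 complex of mitotic entry. BTG and TOB proteins share an amino-terminal domain that binds CNOT7 and CNOT8, the deadenylases of the CCR4-NOT complex, and TOB proteins also bind poly(A)-binding protein, so that they couple mRNA poly(A) tails to their removal. Both families slow proliferation, and GADD45A and BTG2 are textbook DNA damage response genes.

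The libraries held 15398464 to 18031195 reads on genes. Values below are normalized counts, that is, reads divided by 1 factor per library. The mitochondrial chromosome took 6.84% to 7.45% of reads in controls and 9.70% to 10.9% after CPT-11, and when the scaling ignored these genes the members had a median log2 fold change of 0.78 in place of 0.70, and all tested genes 0.09 in place of 0.01. Of 10 markers of colon epithelium 9 had a row and 7 were tested. Of these 6 rose and 0 fell, against 24.3% and 25.1% of all tested genes. The summed normalized count of the markers ran from 54639 to 62572 in controls and from 101770 to 112761 after CPT-11. EPCAM, KRT8, KRT18 and KRT19, the epithelial adhesion molecule and keratins, were high in both groups, whereas VIL1 and LGALS4, which mark enterocytes, did not pass the filter on low values. KRT20, a keratin of differentiated colon cells, rose from 26.1 to 124 normalized counts, and CDX2, an intestinal transcription factor, from 269 to 481. Immune cell markers summed to between 13.0 and 28.9 in controls and between 68.8 and 70.9 after CPT-11, and only the integrin gene ITGAM among them was tested (log2 fold change 2.77, SE 0.39). PTPRC, which encodes the common leukocyte antigen, was at 0 to 1.89 and 0 to 4.05. Fibroblast markers summed to 535 to 654 in controls and 935 to 1256 after CPT-11, nearly all of it COL1A1, and endothelial markers to 21.4 to 33.0 and 19.98 to 25.3. The part of all these markers in the results was not tested. Libraries numbered 1 stood apart within both groups, where the chi-square statistic of their reads, divided by its degrees of freedom, was 8.001 to 11.5 against libraries 2 and 3. It was 3.19 to 3.86 between libraries 2 and 3.

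All members are short genes. On GRCh38, BTG2 lies on chromosome 1 from 203305491 to 203309602, BTG1 on chromosome 12 from 92140278 to 92145897, and BTG3 on chromosome 21 from 17593653 to 17612947. TOB1 lies on chromosome 17 from 50862223 to 50867978 and TOB2 on chromosome 22 from 41433492 to 41447023. GADD45A lies on chromosome 1 from 67685061 to 67688338, GADD45B on chromosome 19 from 2476122 to 2478259, and GADD45G on chromosome 9 from 89605013 to 89606555. Their spans run from 1.54 kb for GADD45G to 19.3 kb for BTG3, with a median of 4.87 kb against 26.3 kb over all tested genes. The principal transcripts in GENCODE release 29 code for 165, 160 and 159 amino acids in GADD45A, GADD45B and GADD45G, for 171, 158 and 252 in BTG1, BTG2 and BTG3, and for 345 and 344 in TOB1 and TOB2. BTG1, BTG2, TOB1 and TOB2 have 2 exons in these transcripts, against a median of 9.0 over the 12447 tested protein-coding genes whose 3' UTR has at least 100 bases.

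Promoter windows, from 250 bases before to 50 bases after a transcription start, were read from the RefSeq table of GRCh38.p14, which matched 7 of 8 members with 8 windows; GADD45A had none. BTG2 and BTG1 are printed because they had the largest rises among well-expressed members, and GADD45B because it is the member that did not pass the test. The strand is that of the gene. Capitals mark matches to the CCAAT box (CCAAT), the TATA box (TATAAA), a forkhead motif (GTAAACA) or the half-site of the cyclic AMP response element (TGACGT), on either strand.
BTG2 promoter, chr1:203305269-203305568, plus strand: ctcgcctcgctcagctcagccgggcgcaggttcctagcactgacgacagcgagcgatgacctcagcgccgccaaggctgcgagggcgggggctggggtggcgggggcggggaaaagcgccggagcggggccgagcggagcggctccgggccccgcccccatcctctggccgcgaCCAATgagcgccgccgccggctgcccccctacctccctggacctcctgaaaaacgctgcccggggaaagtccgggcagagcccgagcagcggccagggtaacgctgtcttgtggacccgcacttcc
BTG1 promoter, chr12:92145797-92146096, minus strand: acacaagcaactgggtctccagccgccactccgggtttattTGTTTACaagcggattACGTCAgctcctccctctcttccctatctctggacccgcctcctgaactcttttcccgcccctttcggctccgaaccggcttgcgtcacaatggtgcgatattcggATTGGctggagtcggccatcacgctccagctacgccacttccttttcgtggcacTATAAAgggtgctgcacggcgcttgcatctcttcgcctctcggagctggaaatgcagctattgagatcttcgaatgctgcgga
GADD45B promoter, chr19:2475877-2476176, plus strand: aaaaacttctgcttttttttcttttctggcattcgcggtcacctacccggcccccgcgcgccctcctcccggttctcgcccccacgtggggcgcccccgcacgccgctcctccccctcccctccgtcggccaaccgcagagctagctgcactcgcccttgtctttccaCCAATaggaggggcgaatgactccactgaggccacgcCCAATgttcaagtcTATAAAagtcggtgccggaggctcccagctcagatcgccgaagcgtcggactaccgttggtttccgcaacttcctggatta

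The BTG2 window is rich in G and C (73.3%, against a median of 58.7% over 35116 windows), holds 1 CCAAT box 76 bases before the start and 3 GC boxes (GGGCGG, not capitalized), and has no TATA box. BTG1 has a TATA box that begins 33 bases before the start. On the opposite strand it has 1 CCAAT box, 1 GC box, 1 forkhead match and 1 cyclic AMP half-site. GADD45B has a TATA box that begins 31 bases before the start and 2 CCAAT boxes. Of all windows 34.6% hold a CCAAT box, 11.5% a TATA box, 45.0% a GC box, 3.42% the forkhead motif and 7.98% the cyclic AMP half-site. AP-1 (TGANTCA, in 7.71% of windows) and NF-kB (5.91%) motifs were also searched on both strands, and none of the 8 windows holds their letters. No match overlapped a match to another motif.

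After CPT-11, 7 of the 8 members rose, 0 fell, and GADD45B did not pass the test, at a Benjamini-Hochberg adjusted p below 0.05 in limma over 16239 tested genes. The change took in much of the transcriptome: 49.4% of all tested genes passed, 24.3% as higher and 25.1% as lower. Among tested protein-coding genes that span under 20 kb, as all members do, 34.2% rose. BTG2, BTG1, TOB1 and GADD45G rose at least 2-fold, which 6.56% of tested genes did. The groups did not overlap for any of the 8 members, all with CPT-11 higher, against 27.8% of tested genes with CPT-11 higher and 56.6% in either direction. The median log2 fold change of the members was 0.70, against 0.01 over all tested genes and 0.16 over the 4717 short protein-coding genes. All 8 averaged at least 10 normalized counts in each group, so none entered the test through 1 group alone. With the smooth dependence of fold change on genomic span (the span trend) removed, 5 members rose and their median was 0.56, while 3974 of all tested genes rose and 3624 fell. When the scaling ignored mitochondrial genes, 8 members rose, while 4792 of all tested genes rose and 3473 fell, against 3939 and 4083 in the fit reported. These are bulk libraries, in which more RNA per cell and more cells with the RNA cannot be told apart.

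**Figure D1:**
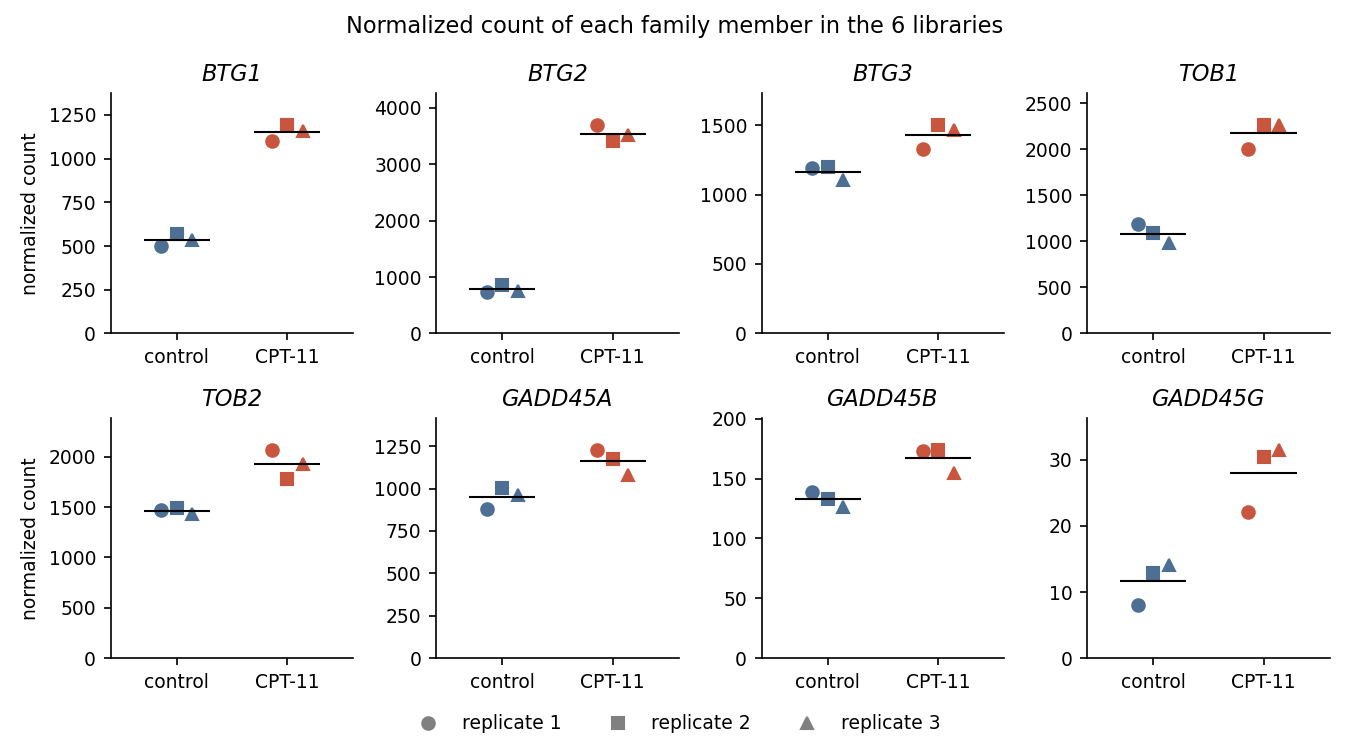
Normalized count (vertical axes, each from 0) of each member in the 3 control and 3 CPT-11 libraries. Points are libraries, with the symbol giving the replicate number, and lines are group means. In every panel the CPT-11 libraries lie above the control libraries, from far apart in BTG2 to close in GADD45A.

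BTG2, an early-response gene whose protein activates deadenylation, had the largest rise of the members. In the order of replicate number, here and below, controls had normalized counts of 742, 858 and 754, and CPT-11 libraries had 3699, 3409 and 3517. The lowest CPT-11 library was thus far above the highest control. The fold change was 4.52 (log2 fold change 2.17, SE 0.09, adjusted p = 7.34e-12), which placed BTG2 at rank 200 of 16239 tested genes. The 3 CPT-11 libraries were 4.34 to 4.71 times the control mean.

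BTG1, first found at a chromosomal translocation in a B cell leukaemia, doubled. Controls had 502, 566 and 535 normalized counts, and treated libraries had 1100, 1193 and 1160. The fold change was 2.15 (log2 fold change 1.11, SE 0.10, adjusted p = 6.12e-08), and libraries within a group differed little beside the gap between groups. BTG1 shares 17.1% of its exonic bases with neighbours, LINC01619 on its own strand and the antisense gene AC025164.1. Reads on LINC01619 came to 21 in all controls and 5 in all treated libraries, and those on AC025164.1 to 6 and 7, few beside the 1598 and 3529 on BTG1. How reads in the shared bases were assigned is not stated in any source used here.

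BTG3, also called ANA, whose protein binds E2F1 and the checkpoint kinase CHK1, rose by little. Control libraries held 1189, 1195 and 1105 normalized counts and treated ones 1329, 1502 and 1466, without overlap. The fold change was 1.23 (log2 fold change 0.30, SE 0.09, adjusted p = 0.0127). The call was lost without control 3 (adjusted p = 0.0634), without CPT-11 sample 2 (0.0752) and without CPT-11 sample 3 (0.05002). It was also lost with the span trend removed (log2 fold change 0.17, adjusted p = 0.117) and with the replicate number as a block (adjusted p = 0.0668). BTG3 shares 12.1% of its exonic bases with BTG3-AS1 on the opposite strand, and no source used here states whether counting used strand. Reads in the shared bases thus cannot be told apart. BTG3-AS1 had 32 reads in controls and 90 after CPT-11, against 3478 and 4384 on BTG3. BTG3-AS1 itself rose, with a mean normalized count of 10.7 ± 1.3 in controls and 28.96 ± 5.5 after treatment (SD, n = 3; log2 fold change 1.346, adjusted p = 0.00418).

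TOB1, which takes its name from its binding to the receptor ERBB2 and bridges CNOT7 to poly(A)-binding protein, doubled. Normalized counts of 1185, 1088 and 985 in controls stood against 2006, 2264 and 2268 after treatment, so that the groups were well apart. The fold change was 2.01 (log2 fold change 1.01, SE 0.10, adjusted p = 1.67e-07). TOB1-AS1, which shares 11.2% of the exonic bases of TOB1 on the opposite strand, had 19 and 34 reads over the groups, against 3247 and 6667 on TOB1, and was not tested. As for BTG3, reads in the shared bases cannot be told apart.

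TOB2, the close relative of TOB1, had a smaller rise. Its normalized counts were 1469, 1495 and 1428 in the controls and 2070, 1780 and 1931 after CPT-11. CPT-11 libraries were spread more widely than the controls, yet all lay above them. The fold change was 1.31 (log2 fold change 0.39, SE 0.09, adjusted p = 0.00148). With the span trend removed the log2 fold change was 0.25 (adjusted p = 0.0191).

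GADD45A, the member first cloned as a DNA damage-inducible transcript, rose by little. Controls stood at 879, 1006 and 962 normalized counts, and treated libraries at 1230, 1173 and 1080. Control 2 and CPT-11 sample 3 came within a small distance of each other, without overlap. The fold change was 1.224 (log2 fold change 0.29, SE 0.10, adjusted p = 0.0197), at rank 4898 of the tested genes. In the same libraries other DNA damage response genes had larger fold changes, among them CDKN1A (6.92-fold), which encodes the CDK inhibitor p21, and MDM2 (2.14-fold), which encodes a ubiquitin ligase. The GADD45A call was lost without control 1 (adjusted p = 0.0573), without CPT-11 sample 1 (0.0526) and without CPT-11 sample 2 (0.0717). It was also lost with the span trend removed (log2 fold change 0.19, adjusted p = 0.0821) and with the replicate number as a block (adjusted p = 0.0842).

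GADD45B, known as a primary response gene of myeloid differentiation and TGF-beta signalling, did not pass the test. Its normalized counts were 139, 133 and 126 in the controls and 173, 174 and 155 after CPT-11. The groups did not overlap. The log2 fold change was 0.33 (SE 0.15, 95% interval 0.01 to 0.65), with an unadjusted p of 0.0411 in limma and an adjusted p of 0.0765. It passed when the scaling ignored mitochondrial genes (log2 fold change 0.41, adjusted p = 0.0281). The authors' deposited table gives GADD45B an adjusted p of 0.185, and adjusted p from 1.26e-113 for BTG2 to 0.0472 for GADD45G among the other members.

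GADD45G, a relative induced by cytokines in other cells, was nearly silent and more than doubled. Its normalized counts were 8.0, 12.8 and 14.1 in the controls and 22.0, 30.4 and 31.5 after CPT-11, resting on 35 and 85 reads in all. In both groups library 1 was the lowest. The log2 fold change was 1.21 (SE 0.37, 95% interval 0.44 to 1.99, adjusted p = 0.0107), the widest interval of the members.

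**Figure D2:**
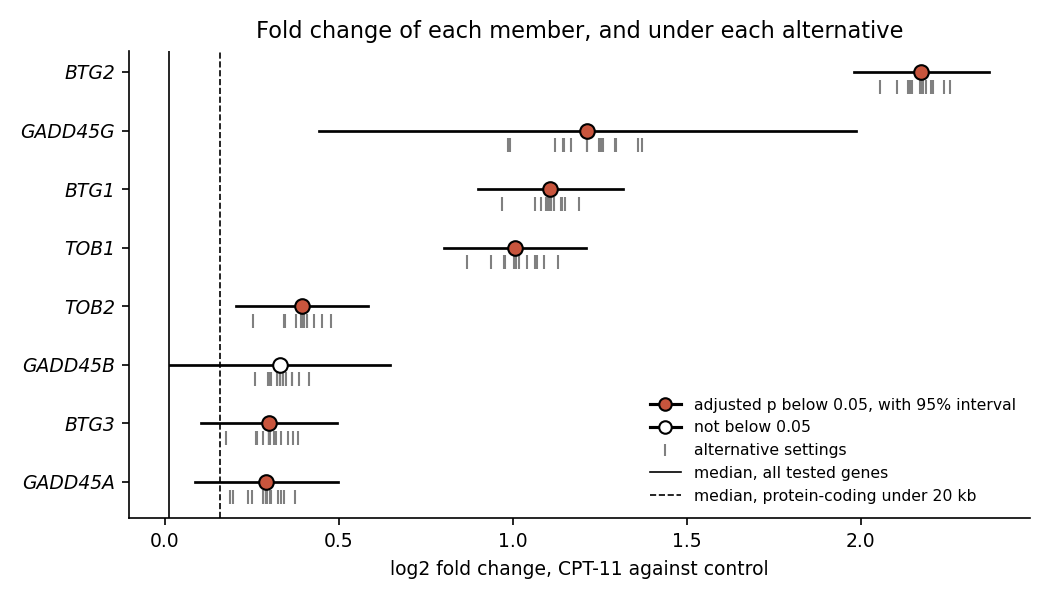
Log2 fold change of CPT-11 against control (horizontal axis) for each member, with its 95% interval; filled points had an adjusted p below 0.05. Grey ticks are the values under each alternative setting, the solid line is the median of all tested genes (0.01) and the dashed line that of protein-coding genes spanning under 20 kb (0.16). BTG2 stands at 2.17, BTG1, TOB1 and GADD45G near 1, and the other members between 0.29 and 0.39.

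Members of a family differed in the size of their rise in these libraries, but 3 against 3 samples cannot give an exact p below 0.1, so no pair could pass 0.05. The log2 fold change of BTG2 exceeded that of BTG3 by 1.88 and that of BTG1 by 1.07, and BTG1 exceeded BTG3 by 0.81. TOB1 exceeded TOB2 by 0.61. GADD45G exceeded GADD45A by 0.92 and GADD45B by 0.88. In each of these 6 pairs the log2 ratio between relatives did not overlap between groups (exact permutation test over samples, two-sided, p = 0.1, which is the smallest that 3 against 3 samples can give; 0.117 adjusted over the 7 pairs). The share of other gene pairs whose ratio separates the groups was not computed. Of single tested genes 56.6% did not overlap between groups in either direction. GADD45A and GADD45B had a difference of -0.04 (exact permutation p = 0.7), and this difference took either sign when single libraries were left out.

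The order of the members by level differed between the groups. Levels were set per length, as normalized counts per kb of the gene length in the authors' table. In controls the order was BTG3 at 504 ± 21.8, GADD45A at 459 ± 31.1, TOB1 at 431 ± 39.6, TOB2 at 321 ± 7.4, BTG2 at 285 ± 23.1, BTG1 at 110 ± 6.6, GADD45B at 62.1 ± 3.0 and GADD45G at 8.8 ± 2.4 (SD, n = 3). BTG3 and GADD45A overlapped in these libraries, as did GADD45A and TOB1. After CPT-11 the order was BTG2 at 1285 ± 53.1, TOB1 at 865 ± 59.7, BTG3 at 621 ± 39.7, GADD45A at 561 ± 36.6, TOB2 at 422 ± 31.8, BTG1 at 237 ± 9.7, GADD45B at 78.2 ± 5.1 and GADD45G at 21.2 ± 3.9. Only BTG3 and GADD45A, among neighbours in that order, overlapped.

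Within the BTG genes, BTG2 went from 31.6% ± 1.3 to 59.9% ± 2.4 of the summed level per kb, and BTG3 from 56.1% ± 1.7 to 28.99% ± 1.9 (SD, n = 3). The share of BTG1 was 12.2% ± 0.56 and 11.1% ± 0.48. The summed level of the BTG genes was 899 ± 42.6 in controls and 2143 ± 8.3 after CPT-11. TOB1 held 57.3% ± 1.9 of the TOB sum in controls and 67.1% ± 3.1 after CPT-11. GADD45A held 86.6% ± 0.80 and 84.9% ± 0.85 of the GADD45 sum, which was 529 ± 31.3 and 661 ± 38.1. The GADD45 sum thus remained mostly GADD45A in both groups, and BTG2 took the place of BTG3 as the leading BTG transcript. These levels assume the whole listed gene length, which can exceed that of the transcript made. It is 2306 bases for BTG3, 2521 for TOB1 and 2069 for GADD45A, against 1456, 2229 and 1496 in their principal transcripts. The order of the members and these shares thus depend on the length used.

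**Figure D3:**
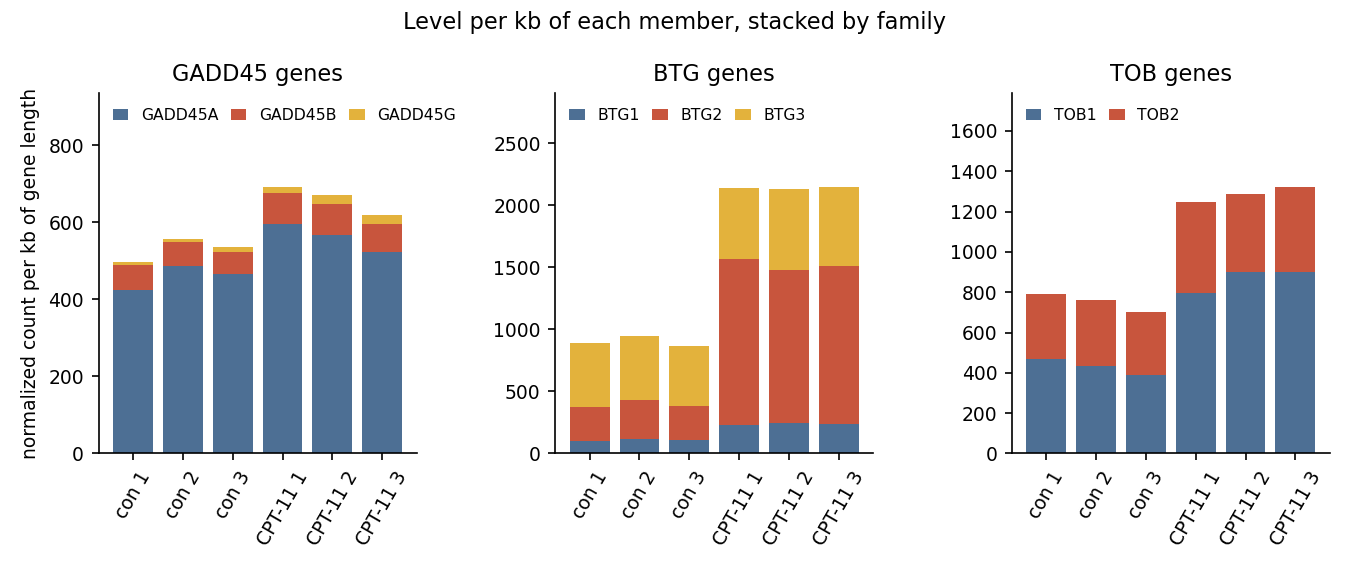
Normalized count per kb of gene length (vertical axes, from 0) in each control (con) and CPT-11 library, stacked by member within the GADD45, BTG and TOB genes. The BTG2 block grows from 285 to 1285 per kb on average, whereas GADD45A, the main GADD45 block, goes from 459 to 561.

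The partners of GADD45 proteins and the genes of the p38 and JNK cascade, taken as 1 list, moved in both directions. All 18 genes on this list were tested. Of these 7 rose and 6 fell, against 24.3% and 25.1% of all tested genes, and 5 did not pass. The list had a median log2 fold change of 0.19. Removing the span trend left 6 rises and 5 falls, with a median of 0.17. Besides CDKN1A, MAPK11, which encodes p38 beta, went up from a mean of 391 ± 24.3 to 715 ± 89.8 (normalized counts, SD, n = 3; log2 fold change 0.87, SE 0.12). MAP3K4, the kinase that GADD45 proteins activate, fell from 1082 ± 24.96 to 454 ± 31.4 (log2 fold change -1.25, SE 0.10). CCNB1, cyclin B1, fell from 3431 ± 331 to 1290 ± 98.3 (log2 fold change -1.41, SE 0.10). Removing the span trend gave -0.95 for MAP3K4 and -1.55 for CCNB1. PCNA, the replication clamp, rose by 0.78 and CDK1 fell by 0.72 on the log2 scale. The 6 adjusted p ran from 4.95e-13 for CDKN1A to 2.96e-05 for CDK1.

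Genes of the CCR4-NOT complex, whose deadenylases BTG and TOB proteins bind, and other poly(A) tail genes did not rise with the members. Of 17 genes of CCR4-NOT and poly(A) tail turnover 0 rose and 9 fell, against 24.3% and 25.1% of all tested genes. The other 8 did not pass, and the list had a median of -0.34. The largest falls were those of PAN2, a subunit of the PAN2-PAN3 deadenylase (-0.76, SE 0.11), and CNOT6L, a CCR4-type deadenylase (-0.68, SE 0.12). CNOT7, a direct BTG/TOB partner, fell (2814 ± 355 in controls, 2198 ± 259 after treatment, log2 fold change -0.36, adjusted p = 0.0105), whereas its close relative CNOT8 had 1087 ± 90.6 and 1223 ± 74.8 (0.17, SE 0.10, adjusted p = 0.159); the difference between the pair was not tested. CNOT1, the scaffold, fell by 0.64 on the log2 scale. The median span of the list was 37.0 kb. With the span trend removed 7 fell and 1 rose, with a median of -0.18, and 8 fell and 3 rose when the scaling ignored mitochondrial genes.

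Of 11 tested genes among other BTG/TOB partners 2 rose and 6 fell, against 24.3% and 25.1% of all tested genes. The list had a median of -0.31. With the span trend removed 3 rose and 5 fell, with a median of -0.11. CCND1, cyclin D1, whose expression BTG and TOB proteins restrain in other settings, went from 9951 ± 392 up to 22463 ± 546 (log2 fold change 1.18, SE 0.08), and HOXB9, a homeobox factor that BTG proteins bind, rose by 0.63 (SE 0.13). E2F1 fell from 746 ± 44.4 to 213 ± 2.4 (-1.80, SE 0.11) and CHEK1 from 1188 ± 76.4 to 583 ± 69.3 (-1.03, SE 0.11). PRMT1, the arginine methyltransferase bound by BTG1 and BTG2, fell by 0.31 on the log2 scale (SE 0.08, adjusted p = 0.00422).

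Of 23 tested transcription factors and known regulators of the members 2 rose and 12 fell, against 24.3% and 25.1% of all tested genes. The other 9 did not pass. MDM2 rose from 3006 ± 339 to 6406 ± 452 (log2 fold change 1.09, SE 0.09) and MYC by 0.46 (SE 0.10). EGR1, a zinc finger factor, fell from 3194 ± 538 to 1074 ± 40.9 (-1.56, SE 0.11), behind E2F1, which is on this list too. BRCA1 fell by 1.19 and POU2F1, the octamer factor OCT1, by 0.98 on the log2 scale. The list had a median of -0.25, which was 0.02 with the span trend removed, when 9 fell and 4 rose.

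BTG2 and the GADD45 genes are themselves induced early in many responses. Of 26 immediate early genes 12 rose and 6 fell, against 24.3% and 25.1% of all tested genes, and 8 did not pass. The median span of this list was 4.34 kb, and 34.2% of tested protein-coding genes that span under 20 kb rose. The list had a median log2 fold change of 0.29. With the span trend removed 10 rose and 6 fell, with a median of 0.15. ATF3, a stress-induced repressor, went from 203 ± 40.3 up to 1078 ± 41.5 (log2 fold change 2.42, SE 0.13) and NR4A1, an orphan nuclear receptor, from 209 ± 33.7 to 604 ± 91.4 (1.53, SE 0.14). EGR1 had the largest fall, followed by KLF2, a Kruppel-like factor, which went from 1151 ± 366 to 443 ± 30.6 (-1.33, SE 0.17). The other genes that carry a GADD name went apart. PPP1R15A, which encodes GADD34, rose by 0.34 (SE 0.11, adjusted p = 0.0193). This call was lost without control 3 (adjusted p = 0.0652) and without CPT-11 sample 1 (0.0816). It was also lost with the span trend removed (0.0809) and with the replicate number as a block (0.0644). DDIT3, which encodes GADD153, also called CHOP, fell from 126 ± 13.9 to 75.1 ± 1.4 (-0.74, SE 0.18, adjusted p = 0.00197).

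Proteins that bind AU-rich elements set the decay of many short-lived mRNAs, that of GADD45A among them. Of 9 such genes 0 rose and 5 fell, against 25.1% of all tested genes that fell, with a median of -0.33. With the span trend removed 0 rose and 4 fell, with a median of -0.23. When the scaling ignored mitochondrial genes 1 rose and 5 fell. HNRNPD, which encodes AUF1, fell from 4890 ± 264 to 2512 ± 74.6 (-0.96, SE 0.08) and ELAVL1, which encodes the stabilizing protein HuR, fell by 0.48 on the log2 scale (SE 0.09). In the 3' UTRs of the members the core pentamer ATTTA occurred 3 times in BTG3, 4 in TOB1, 2 in GADD45A, 2 in BTG2, 5 in BTG1, 3 in TOB2 and 0 in GADD45B and GADD45G. Per kb this is 6.82 in BTG3, 5.28 in TOB1 and 3.55 in GADD45A, against a median of 1.64 over the same 12447 genes. The nonamer TTATTTATT occurred in none of the members and in 8.67% of those genes. BTG1, TOB2 and BTG2 had 1.31, 1.06 and 0.92 pentamers per kb. The 3' UTR of BTG3 has 440 bases, so its value rests on the 3 matches. Any relation between these densities and the size of the rise was not tested. A match is a description of the letters and not of a working site.

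**Figure D4:**
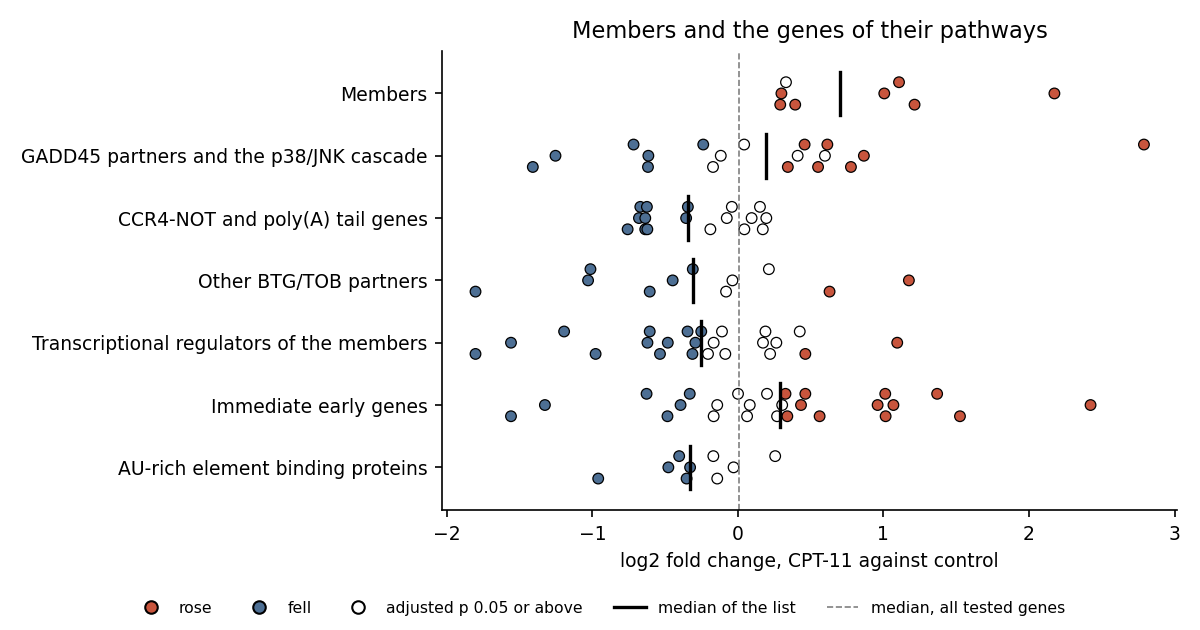
Log2 fold change of CPT-11 against control (horizontal axis) of each tested gene of the members and of their partner and regulator lists; red points rose, blue points fell, open points had an adjusted p of 0.05 or above. Thick lines are list medians and the dashed line is the median of all tested genes. The members lie to the right with a median of 0.70, and the CCR4-NOT list lies to the left with -0.34.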

How the data were processed

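RNA sequencing of 6 HCT116 libraries was analysed from 1 table of 30560 genes. Its per-sample values are a signal, the normalized count, which the authors made by dividing read counts by 1 factor per library: dividing by the smallest step gave whole reads for 100% of the values of each library (tolerance 0.001 read). The log2 fold change and the p-values in the authors' deposited table are theirs, by a method not stated in the file. The submitters' processing notes list GRCh38 and, with no roles, DESeq2 1.22.1, StringTie 1.3.4d, edgeR 3.24.3, HISAT2 2.1.0, fastp 0.19.3 and featureCounts 1.6.2. Gene positions were equal to GENCODE release 29 for 30560 genes. No source used here states how overlapping genes were counted.

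The main test, across all genes, used limma 3.58.1 (R 4.3.3, trended prior variance) and log2(normalized count + 1) of genes averaging at least 10 normalized counts (16239), with Benjamini-Hochberg adjustment. The added 1 understates the change of low genes. Every adjusted p printed here for a gene, unless credited to the authors, is from this fit or the named alternative. Alternatives were edgeR 4.0.16 and DESeq2 1.42.0 on recovered reads, other pseudocounts, filters and scalings, removal of a loess trend with genomic span, the replicate number as a block, and leaving out libraries. The limma, edgeR and DESeq2 fits were tested on simulated data first, and the other alternatives were not. In the simulation limma recovered 62% of 50 genes changed 1.5-fold and 94% of 50 changed 4-fold. It made 181 calls, of which 14 were false. The simulation changed 50 genes at each of 1.5-, 2-, 4- and 8-fold, with 15734 tested, whereas 49.4% of genes passed in the data. These rates thus need not hold for the data. Fold changes below 1.5 were not simulated. A floor of 3 reads per library was chosen and not computed from the data, and equals 0.166 to 0.195 CPM.

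The members, lists, motifs and tests were chosen with earlier results of these data known. All members are named; of each list, the 2 largest called rises and falls at a mean of at least 50 are named, with a few partners fixed by name (1 of these, and 1 of the motifs searched, is not reported here), and other genes were chosen after their values were seen.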

Additional observations from a re-analysis of the deposited data

How the results depend on the processing

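BTG2, BTG1, TOB1, TOB2 and GADD45G rose and passed under every alternative run in which they were tested; GADD45G is below the filter at a mean of 50. Their log2 fold changes ranged from 2.06 to 2.26, 0.97 to 1.19, 0.87 to 1.13, 0.25 to 0.48 and 0.99 to 1.37. GADD45A and BTG3 kept their direction, but did not pass with the span trend removed (0.19 and 0.17) or with the replicate block (0.29 and 0.30, adjusted p = 0.0842 and 0.0668); PPP1R15A did not pass under either (0.0809 and 0.0644). Leaving out single libraries gave 0.24 to 0.34 for GADD45A and 0.26 to 0.35 for BTG3, with calls lost in some; the cause was not tested. GADD45B passed under 1 alternative, the scaling that ignored mitochondrial genes (0.41). The difference between GADD45A and GADD45B ran from -0.13 to 0.0058 when single libraries were left out. Between 5 and 8 members were called, and 6812 to 8520 genes in all, of which 8022 in the fit reported. edgeR called 8079 genes and DESeq2 7805, each with 7 members. Without both libraries numbered 1, an alternative added after the data were seen, 7 members rose.

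Replicate numbers are shared between groups in the labels. Deviations of same-numbered libraries had correlations of -0.23, -0.006 and -0.10, and 0 of 6 libraries correlated best with the library of its own number. With 3 libraries per group these values cannot settle whether the numbers pair the samples. With the replicate block 6812 genes and 5 members were called. Depth limits GADD45G most, with 8 to 30 reads per library.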

Other observations

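The tested protein-coding genes most like each member over the 6 libraries were named by Pearson's r of log2 values, as a description: with 2 groups of 3 such r mostly follow the difference between groups, and 1404 of 13214 genes reached 0.95 with BTG2. Nearest to BTG2 were RETSAT, ASS1 and ADGRE2 (r = 0.9994 to 0.9992), and nearest to BTG1 were LAMP3, QDPR and CHMP1B (0.9996 to 0.9995). Nearest to TOB1 were TRIAP1, MDM2 and EI24 (0.9995, 0.9989 and 0.9982), with log2 fold changes of 1.27, 1.09 and 1.05. Nearest to BTG3 were RNF14, ACBD5 and ARL14EP, and nearest to TOB2 were FAM92B, IRAK2 and SLC46A1. Nearest to GADD45A were TRADD, EPS8L1 and MAP3K11 (0.9985, 0.9979 and 0.9974). GADD45B had SURF2, CFAP298 and MFSD5, and GADD45G had ACTR5, FOXO3 and KCNRG.

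GADD45GIP1, a mitochondrial ribosome protein gene named for binding GADD45G, rose from 1030.3 ± 108 to 1309 ± 152 normalized counts (n = 3; log2 fold change 0.34, SE 0.11, limma adjusted p = 0.0150). The processed pseudogenes BTG1P1 and TOB2P1 had 9 and 18 reads over the controls and 2 and 16 over the CPT-11 libraries, and were not tested.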
